A study of Mus musculus with 6 samples.

Results

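Small nucleolar RNA (snoRNA) host genes were described in RPE/choroid, the retinal pigment epithelium together with the vascular layer beneath it, of C57BL/6J mice. The members were 8 named non-coding genes, Gas5, Snhg1, Snhg3, Snhg5, Snhg6, Snhg8, Snhg12 and Zfas1, and a member was the row of the deposited table whose gene symbol equals that name. Of the 33924 rows, 5 were members by this rule (Gas5, Snhg1, Snhg3, Snhg5 and Snhg12). Zfas1 was found as 1 row under its older symbol, 1500012F01Rik, which RefSeq pairs with Zfas1, and its values are set beside those of the 5. Snhg6 and Snhg8 matched no row, by symbol or by RefSeq synonym, and have no value here. The snoRNA rows that belong to the 8 genes were 9 by symbol.

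Total RNA of 3 young and 3 aged mice, labelled male and of the strain C57BL/6J with no allele or treatment named, was sequenced after removal of ribosomal RNA and without selection for poly(A) tails. Each sample was a pair of eyes. The labels give the young mice 1 to 2 months, and the aged mice 20 to 24 months in the titles but 22 to 24 months in the time label. In the study itself the young mice are older than their labels and both sexes are named, so age and sex are uncertain. Every value below is the authors' mean over all 6 libraries, in normalized counts, with no value per library or per age group, so that no level carries an SD, no test was run and young and aged mice were not compared.

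A snoRNA guides a chemical change in another RNA, mostly ribosomal RNA. Box C/D snoRNAs direct methylation of the ribose and box H/ACA snoRNAs direct the change of uridine to pseudouridine, each in a particle with its own core proteins. In mammals most snoRNAs are cut out of introns of a longer transcript. The genes described here are hosts whose spliced exons encode no known protein, whereas many other hosts are genes of ribosomal proteins or translation factors. Several of their spliced RNAs are substrates of nonsense-mediated decay, which destroys RNAs that are stopped early in translation. Gas5 (growth arrest-specific 5) was named for its accumulation in growth-arrested cells.

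In the annotation used here (GENCODE M21, build GRCm38) the 8 genes hold 32 snoRNA gene models, all of them lying whole within an intron of at least 1 host transcript and on its strand. Gas5 holds 10 of them, Snhg1 holds 8, Snhg12 holds 5, Zfas1 holds 3, Snhg3 and Snhg5 hold 2 each, and Snhg6 and Snhg8 hold 1 each. The models are 60 to 205 bases long, and 24 of the 32 are under 100 bases. They carry 30 symbols, since Snord80 and Snora16a each have a second, overlapping model.

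The snoRNAs with a row of their own carry the comparison made below, so their sequences are shown first, 5′ to 3′ as DNA letters of the GENCODE M21 transcripts. The box C/D members are 4. Capitals mark the letters TGATGA of box C where they occur in the first 20 bases and CTGA of box D where they occur last in the final 20 bases, searched on the RNA strand alone. Snord47 lies in Gas5 at chr1:161038082-161038158 on the plus strand, Snord22 in Snhg1 at chr19:8725866-8725991 (plus), Snord99 in Snhg12 at chr4:132310691-132310764 (plus) and Snord12 in Zfas1 at chr2:167065276-167065365 (plus).
Snord47: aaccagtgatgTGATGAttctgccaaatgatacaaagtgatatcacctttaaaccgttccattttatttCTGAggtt
Snord22: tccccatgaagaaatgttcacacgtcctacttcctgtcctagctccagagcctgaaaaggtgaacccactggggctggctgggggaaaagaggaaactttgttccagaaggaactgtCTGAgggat
Snord99: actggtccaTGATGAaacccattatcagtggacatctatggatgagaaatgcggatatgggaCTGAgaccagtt
Snord12: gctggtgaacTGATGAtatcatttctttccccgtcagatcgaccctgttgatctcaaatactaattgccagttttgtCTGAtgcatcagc

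Both sets of letters were found in 3 of these 4, and in 67 (69.1%) of the 97 annotated Snord genes. In Snord22 TGATGA was not among the first 20 bases, as in 28 of the 97.

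The box H/ACA members are 5, and capitals mark the last ACA within the final 20 bases. Snora16a, Snora44 and Snora61 lie in Snhg12 at chr4:132309464-132309600, chr4:132309941-132310069 and chr4:132310240-132310369 on the plus strand. Snora73b and Snora73a, of the U17 family, which acts in the cutting of the ribosomal precursor, lie in Snhg3 at chr4:132352322-132352526 and chr4:132352775-132352979 on the minus strand.
Snora16a: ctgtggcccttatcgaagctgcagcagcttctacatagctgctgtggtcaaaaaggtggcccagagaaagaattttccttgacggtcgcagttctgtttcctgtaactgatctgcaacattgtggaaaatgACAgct
Snora44: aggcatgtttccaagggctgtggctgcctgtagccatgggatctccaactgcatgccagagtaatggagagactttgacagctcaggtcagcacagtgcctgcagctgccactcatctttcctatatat
Snora61: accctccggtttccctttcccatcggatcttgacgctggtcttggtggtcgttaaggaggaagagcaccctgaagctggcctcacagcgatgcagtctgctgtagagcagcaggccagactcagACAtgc
Snora73b: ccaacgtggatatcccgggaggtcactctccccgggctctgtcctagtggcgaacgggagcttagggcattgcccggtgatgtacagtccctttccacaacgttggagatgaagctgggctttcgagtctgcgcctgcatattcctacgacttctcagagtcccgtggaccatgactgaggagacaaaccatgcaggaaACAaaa
Snora73a: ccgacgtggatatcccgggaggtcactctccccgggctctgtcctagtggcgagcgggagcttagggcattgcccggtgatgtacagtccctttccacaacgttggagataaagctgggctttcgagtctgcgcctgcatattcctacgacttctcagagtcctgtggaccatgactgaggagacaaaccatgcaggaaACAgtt

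The ACA was found in 4 of the 5 and in 38 (95.0%) of the 40 annotated Snora genes. In Snora44 it was not found in that stretch of the annotated model.

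Gas5 was the most abundant host. It lies on chromosome 1 at 161034422 to 161038539 on the plus strand, is annotated with 25 transcripts, and had a mean of 1846 normalized counts, rank 2393 of the 33924 rows. Divided by its longest annotated transcript of 2556 bases, the level was 722 normalized counts per kilobase, above 93.2% of the 22862 genes above 0 that have an annotated length. With the exon union as divisor it was 491 per kilobase, and with the shortest transcript 5336. Among the 2705 long non-coding RNA genes of this set it ranked 9 by the longest transcript. Gas5 held 68.7% of the summed mean of the 5 members, which together made 0.0140% of the sum over the table.

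**Figure D1:**
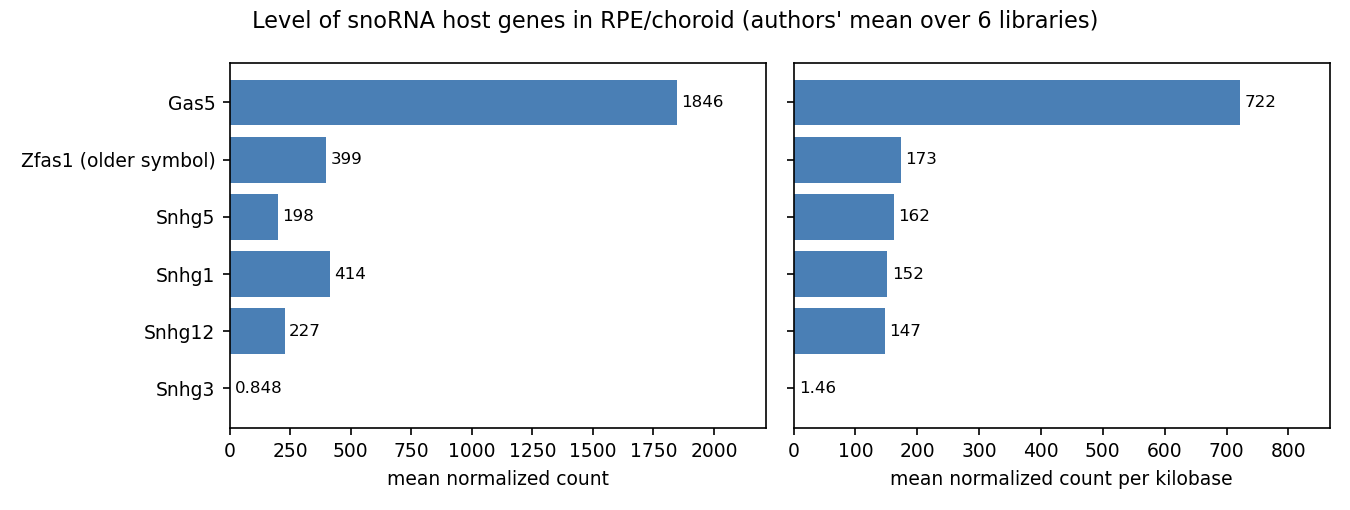
Bars give the authors' mean over 6 libraries for the 6 host genes with a row, in normalized counts (left) and in normalized counts per kilobase of the longest annotated transcript (right); no error can be given. Gas5 stands at 722 per kilobase, 4 hosts stand between 147 and 173, and Snhg3 stands at 1.46.

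Zfas1, Snhg5, Snhg1 and Snhg12 lay between 147 and 173 normalized counts per kilobase of longest transcript. The range depended on the length used, and with the shortest transcript it ran from 450 to 1327. Zfas1 (chromosome 2, 167062934 to 167065862, plus strand), an RNA that starts beside the start of Znfx1 on the other strand, had a mean of 399 normalized counts and 173 per kilobase. Snhg5 (chromosome 9, 88521050 to 88522929, minus strand), host of the Snord50 pair, had 198 normalized counts and 162 per kilobase. Snhg1 (chromosome 19, 8723475 to 8726443, plus strand), beside Slc3a2, had 414 normalized counts and 152 per kilobase. For Snhg12 (chromosome 4, 132308623 to 132311024, plus strand) the values were 227 normalized counts and 147 per kilobase. Gas5 stood 4.76 times above Snhg1 per kilobase and 4.46 times above it in undivided counts. Without values per library the order within this group of 4 cannot be told from replicate spread, and it too changed with the length used. In a bulk sample, moreover, fewer cells that express a gene and less of its RNA per cell cannot be told apart.

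Snhg5, Snhg1 and Snhg12 stood among the more abundant of the long non-coding RNAs with an annotated length. Zfas1, like other rows under an older symbol, is not in that ranked set. All 4 stood near the middle of the protein-coding genes. Snhg5, Snhg1 and Snhg12 ranked 39, 44 and 47 of the 2705 long non-coding RNA genes per kilobase. Their levels exceeded those of 60.6%, 58.9% and 58.2% of the 16468 protein-coding genes, and Zfas1 exceeded 62.4%. The median was 4.83 normalized counts per kilobase for the long non-coding genes and 103 for the protein-coding ones, so these hosts lay above both.

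**Figure D2:**
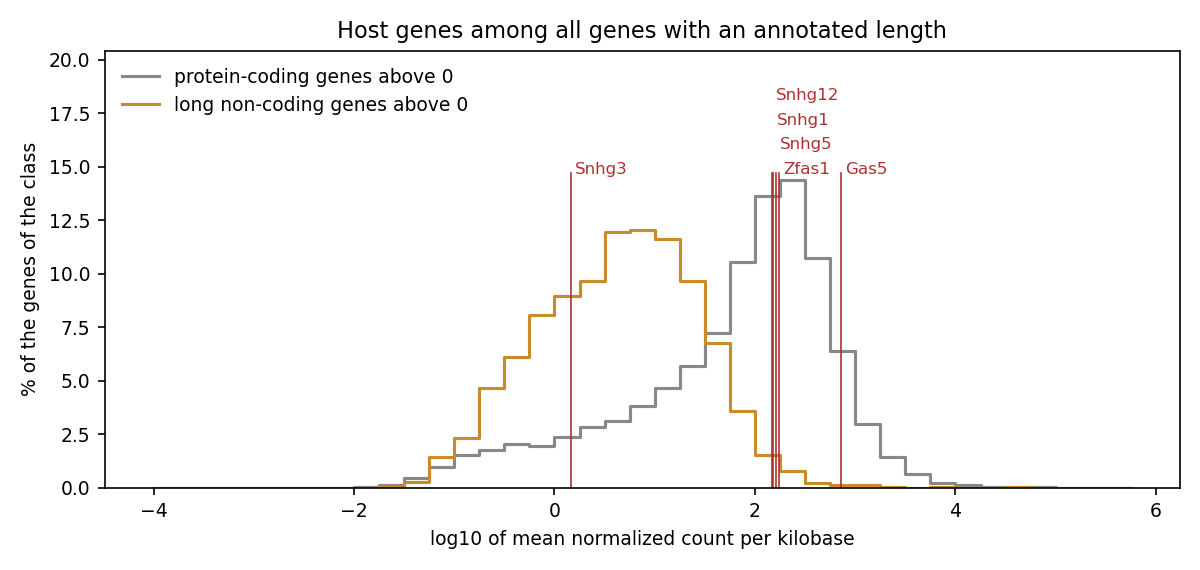
Lines show how the level per kilobase (log10 axis) is distributed over protein-coding and over long non-coding genes above 0, in percent of each class, and red lines mark the 6 hosts. Gas5 and the group of 4 lie right of nearly all long non-coding genes, whereas Snhg3 lies among them, below their median of 4.83.

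Snhg3 stood apart from the others. The gene lies on chromosome 4 at 132348014 to 132353686 on the minus strand, and its row had a mean of 0.848 normalized counts, or 1.46 per kilobase, rank 1927 among the long non-coding genes. Divided by the exon union the level was 0.860 per kilobase, and by the shortest transcript 2.56. Its transcripts share the locus with Rcc1, the nuclear exchange factor for Ran, on the same strand, and 13.7% of its exon bases are also exon bases of Rcc1, whose own mean was 142 normalized counts. On the opposite strand Gm17300, with a mean of 158 normalized counts, covers 71.5% of the exon bases of Snhg3. The kit marks strand, but the sources used here do not say whether the abundance estimates used it. How reads were divided between the 3 genes was not tested, so the low value of Snhg3 is uncertain.

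Sharing of sequence with other genes differed between the hosts. Of the words of 31 bases in the annotated transcripts of Gas5, 90.3% occur in no other gene, and 100% do when its own snoRNAs are set aside. With own snoRNAs set aside the share was 99.0% for Snhg1, 99.2% for Snhg12, 90.7% for Snhg3, 88.6% for Zfas1 and 85.3% for Snhg5. Snhg5 shared most with 9330159M07Rik (209 words), and Zfas1 shared most with Gm27494 (159 words). Own snoRNAs aside, words of Zfas1 occurred in 555 other genes and words of Snhg1 in 148.

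Host genes of this kind are known for start sites in a stretch of C and T (the 5′ terminal oligopyrimidine, or TOP, element), which ties the translation of such RNAs to growth signals. The 25 bases before and 25 after the RefSeq start (GRCm38.p6, sense strand, 5′ to 3′) are shown for the 6 hosts with a row, with the longest unbroken run of C or T in capitals. For Gas5, which has 2 RefSeq starts, the downstream one is shown.
Gas5 (chr1:161035141-161035190, plus): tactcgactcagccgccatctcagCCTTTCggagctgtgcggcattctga
Snhg1 (chr19:8723462-8723511, plus): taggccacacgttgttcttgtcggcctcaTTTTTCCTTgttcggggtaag
Snhg12 (chr4:132308653-132308702, plus): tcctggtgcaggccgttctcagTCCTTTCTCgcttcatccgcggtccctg
Snhg5 (chr9:88522873-88522922, minus): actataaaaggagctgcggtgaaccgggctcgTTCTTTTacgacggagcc
Snhg3 (chr4:132353662-132353711, minus): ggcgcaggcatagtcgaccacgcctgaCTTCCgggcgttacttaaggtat
Zfas1 (chr2:167062909-167062958, plus): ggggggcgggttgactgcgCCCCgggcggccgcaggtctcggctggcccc

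Snhg1 and Snhg12 each had a run of 9 bases, which 13.3% of all 32851 start stretches of the same length reach. The run of Snhg5 was 7 bases (reached by 29.3%), that of Gas5 was 6 bases at this start (43.9%) and 3 bases at the upstream start (96.3%). Snhg3 with 5 bases (64.7%) and Zfas1 with 4 bases (84.4%) were at or below the median run of 5. The run was sought anywhere in the 50 bases, here and in all stretches, so the shares are not those of a run at the start. Counted from the RefSeq start, it began at base 4 in Snhg1, 7 in Snhg5 and 2 in Snhg3. It began at -3 in Snhg12, at -1 in Gas5 (downstream start) and at -6 in Zfas1. Start positions are those of RefSeq and were not measured in these libraries, so a run is a description of the letters alone.

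The snoRNA rows of the same loci were then set beside their hosts. Of the 9 snoRNAs with a row under their own symbol, 8 were listed at 0, namely Snord47, Snord22, Snord99, Snord12, Snora44, Snora61, Snora73a and Snora73b. The exception was Snora16a of Snhg12, with a mean of 37.3 normalized counts or 272 per kilobase, which is 1.85 times the level of Snhg12 per kilobase of its longest transcript. This order turned with the length used, since the ratio was 0.507 with the shortest transcript of Snhg12 as divisor and 0.165 in undivided counts. Beside these values, Gas5 had 1846 normalized counts beside 0 for Snord47, and Snhg1 had 414 beside 0 for Snord22. Zfas1 had 399 beside 0 for Snord12. Because every cell uses box C/D and H/ACA snoRNAs, a row listed at 0 is given only as such and not as absence of the RNA.

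**Figure D3:**
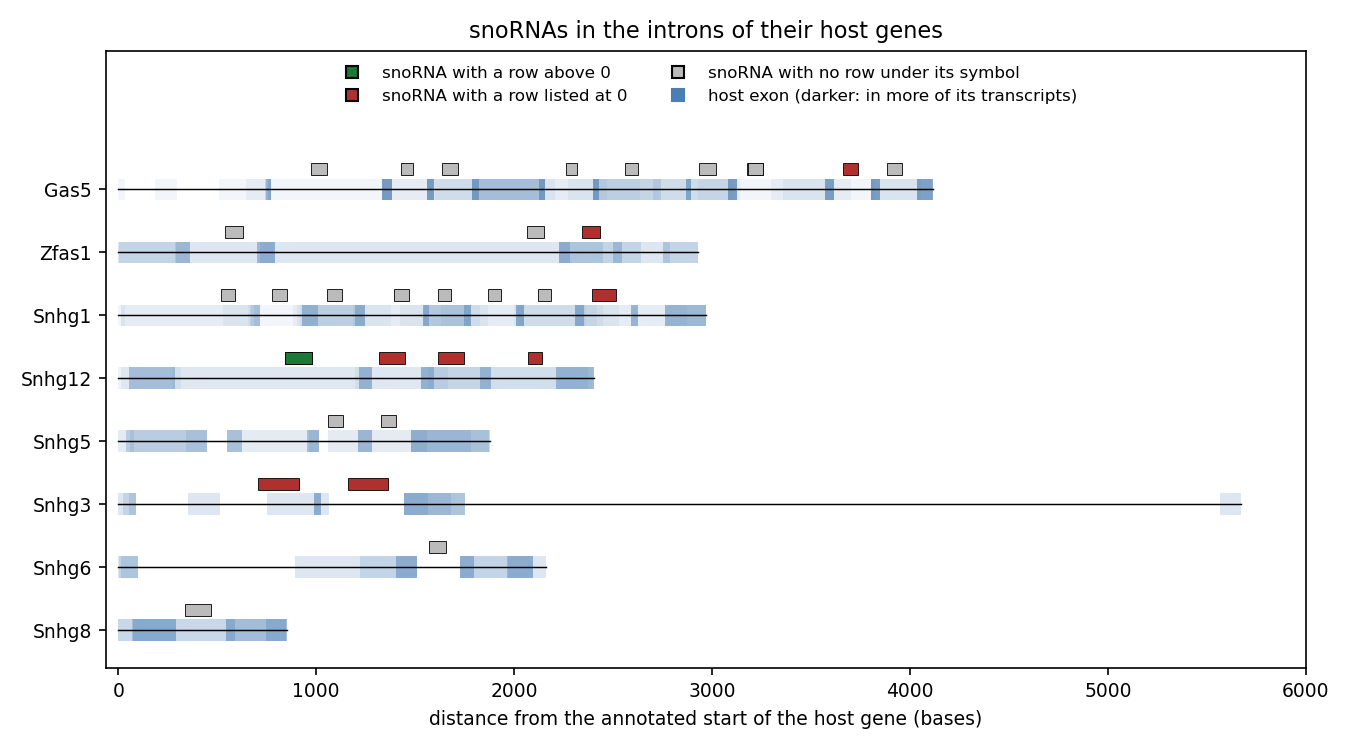
Each line is a host gene drawn from its annotated start (x axis, bases), with exons in blue and the 32 snoRNA models as boxes above, coloured by their row in the table. The snoRNAs with a row are 8 at 0 and 1 above 0, and exons of at least 1 host transcript run the whole length beneath 29 of the 32 models.

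Rows at 0 were less frequent among the snoRNAs of other places. Of 89 other snoRNA rows under a mouse symbol, 62 (69.7%) were above 0, against 1 of 9 (11.1%) for the 8 hosts. The share above 0 was 70.3% of 74 rows in introns of protein-coding hosts, 70.0% of 10 rows in introns of other non-coding genes, and 60.0% of 5 rows outside any annotated host intron. The highest of all was Snord17, with 1884 normalized counts. Rows at or above 10 normalized counts were 1 of 9 for the 8 hosts and 23 of 89 (25.8%) for the others. These are counts of rows in 1 table of means, given without a test.

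Rows at 0 were also counted by the annotation around the snoRNA, first by an exon of the host that spans it, as in a transcript that keeps the intron. Such an exon covers 29 of the 32 snoRNA models of the 8 hosts and 7 of the 9 with a row, Snora16a among them, so that within these hosts 1 of 7 covered rows and 0 of 2 uncovered rows were above 0. In these 7, none of the 31-base words is found in the snoRNA alone, since every word also occurs in the host's transcripts. Among the snoRNAs of other hosts, 21 of 37 rows (16, or 43.2%, above 0) were at 0 where a host exon covers the snoRNA, and 4 of 47 (43, or 91.5%, above 0) where none does. At a mean of at least 10 normalized counts the shares were closer, at 21.6% of the covered and 27.7% of the uncovered rows. The 2 uncovered rows, Snora73a and Snora73b, had 14.9% and 54.9% of their words to themselves. No exon spans Snora73a whole, but 73.7% of its words occur in transcripts of Snhg3, and Snora73b shares 43.4% of its words with Snora73a. The part of these overlaps in the rows at 0 was not tested.

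Length was counted in the same way. Of other snoRNA rows under 100 bases, 64.7% of 51 were above 0, and of those of at least 100 bases 76.3% of 38. At a mean of at least 1 normalized count the shares were 62.7% and 65.8%, and at a mean of at least 10 they were 13.7% and 42.1%. For the 8 hosts 0 of 3 rows under 100 bases and 1 of 6 longer rows were above 0. Whether length had a part in these values was not tested either.

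**Figure D4:**
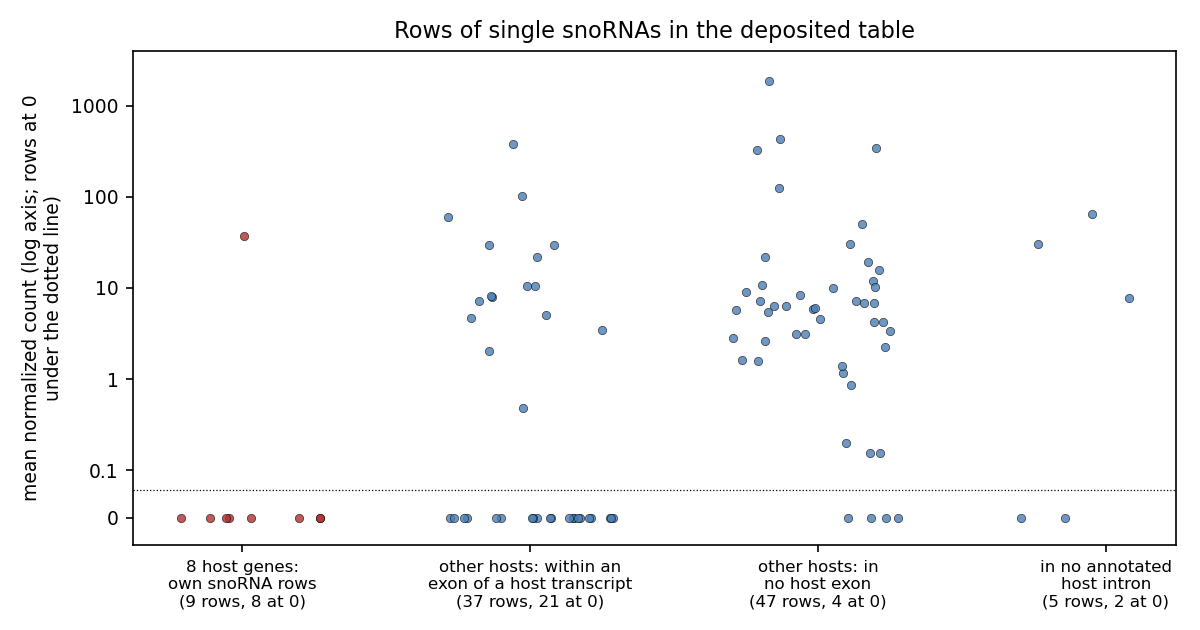
Each point is a snoRNA row under a mouse symbol, by its mean over 6 libraries (log axis, with rows at 0 under the dotted line), grouped by where the snoRNA lies; spread along the x axis carries no meaning. Of the rows of the 8 hosts 8 of 9 sit at 0, beside 21 of 37 where another host's exon covers the snoRNA and 4 of 47 where none does.

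Besides mouse symbols, the table holds rows whose snoRNA name is in capitals, a family name that can cover several loci. Of these, 22 carry the name of a family known for the 8 hosts, 6 of them by a symbol annotated inside the host and 16 by family name alone. Whether such a row was read from the host's locus cannot be told, and it is set beside the host on that footing.

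For the large box C/D clusters these rows too were near 0. Of 7 such rows for Gas5, SNORD44, SNORD74, SNORD75, SNORD77, SNORD78 and SNORD81 were at 0 and SNORD79 had 1.47 normalized counts. Of 8 for Snhg1, SNORD22 had 0.353 and SNORD26 had 0.148, and SNORD25, SNORD27, SNORD28, SNORD29, SNORD30 and SNORD31 were at 0. Together these 15 rows were above 0 in 3 cases (20.0%), against 38 of 47 (80.9%) for the other box C/D rows in capitals. The 47 include SNORD50 and SNORD12, families of other hosts given below. A host exon covers all 10 snoRNA models of Gas5 and all 8 of Snhg1. The places of the rows in capitals are not known, so coverage could not be matched and its part was not tested. Of all 22 family rows of the 8 hosts, 9 (40.9%) were above 0, against 97 of 108 (89.8%) other rows in capitals.

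Rows for families of the other hosts were 7, all above 0 but SNORA16. SNORA73, the family of the Snhg3 pair, had 273 normalized counts, far above the 0.848 of Snhg3 itself and the 0 of both Snora73a and Snora73b. SNORA61 had 21.5 and SNORA44 had 17.3 normalized counts, where Snora61 and Snora44 were at 0, and SNORA16 was at 0 where Snora16a had 37.3. SNORA24 (a family of Snhg8) had 10.2, SNORD50 (Snhg5) had 8.75 and SNORD12 (Zfas1) had 8.20 normalized counts. H/ACA rows in capitals outside these families were above 0 in 61 of 63 cases, with a median of 18.6 normalized counts, so SNORA61 and SNORA44 lay near that median.

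Levels of the genes that act with snoRNAs were read from the same table per kilobase. Of 9 listed symbols of core proteins of the particles, 7 had a length and a row, with a median of 151, from Fbl (fibrillarin, the methylase of box C/D particles, 20.6) to Nop10 (a protein of H/ACA particles, 609). The 10 assembly factors had a median of 151 as well, from Shq1 (18.6) to Rpap3 (452). For nonsense-mediated decay, 8 of 10 factors had a row, with a median of 223, from Upf3a (136) to its partner helicase Upf1 (351). Snhg1, Snhg5, Snhg12 and Zfas1, at 147 to 173, therefore lay close to the medians of the core proteins and the assembly factors, and Gas5, at 722, above the highest member of each of the 3 lists. The last order holds per kilobase of longest transcript, and in undivided counts Gas5 (1846) stood below Smg1 (4846), a kinase of nonsense-mediated decay.

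Other hosts were compared in the same way. Of 14 other non-coding hosts listed, 5 had a row and 3 also had a length, from Snhg9 (96.9 per kilobase) to Rian (183), the imprinted host on chromosome 12. Of 24 listed symbols of protein-coding hosts, 22 had both, with a median of 1639 per kilobase, from Rpl23a (26.4) to the elongation factor Eef2 (8300). Of these 22, 14 stood above Gas5, the highest of the non-coding hosts given here, while Rpl23a stood below all of them but Snhg3.

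Markers fixed with the lists were read beside the tissue label. All 6 RPE markers were above 0, with a median of 16816 normalized counts per kilobase and the lowest value for Best1 (33.6). The medians were 15241 for 6 pigment cell markers, 9597 for 4 of skeletal muscle and 8494 for 4 of fibroblasts. They were 3318 for 6 rod markers, 929 for 4 of macrophages and 499 for 5 of endothelium. No marker with a row was at 0, but 26681 of the 33924 rows were above 0 too, so this does not check the label. The median over all genes above 0 with a length was 46.7 per kilobase, so the means are those of mixed tissue. The part of each cell type in the host levels was not tested.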

How the data were processed

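RNA of RPE/choroid from 3 young and 3 aged mice was sequenced as total RNA without ribosomal RNA. The authors used BBDuk for trimming, STAR for mapping to Ensembl GRCm38 transcripts and Sailfish for abundance, applied a total count scaling and ran DESeq2 on young against aged. The deposited table has 1 row per symbol. The value used here is the deposited baseMean, a signal that is never negative; it was read as the mean normalized count over all 6 libraries because DESeq2 uses that name so, and the sources do not describe it. The other columns hold the authors' own comparison (log2 fold change, its error, Wald statistic, p and adjusted p) and were not used, so the planned comparison of ages was not made. The table has 33924 rows, 7243 of them at 0, and, in the column used, no value per library, so the depth of each library, replicate error and counting limits cannot be read from it.

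Symbols were matched to GENCODE M21 of the same build, which is a later release than the authors' annotation, and 28553 (84.2%) had a length. Levels per kilobase divide by the longest annotated transcript. TPM values are already scaled by length, and the sources do not say whether that scaling remains in the deposited mean. If it does, the levels and ranks per kilobase divide by length a second time. A snoRNA was tied to a host where it lies whole within an intron on the same strand. Words of 31 bases were counted over all annotated transcripts on the sense strand. Genes named are the 8 members, the snoRNA rows tied to them, and the highest and lowest member of each list, with further values chosen after they were seen (Snord17, Smg1, Dkc1, and the genes that neighbour the hosts or share words with them). Members and lists were chosen with earlier results of these data known. Alternatives were other lengths, entries at 0, other detection limits, a median in place of a sum, and, chosen after seeing the data, the addition of Zfas1, the removal of Snhg3 and the rows in capitals. Python 3.11.15 and pandas 2.3.3 were used.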

Additional observations from a re-analysis of the deposited data

How the results depend on the processing

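The median level of the 5 members, 152 normalized counts per kilobase of longest transcript, was 537 when divided by the shortest transcript of at least 200 bases, a shorter divisor by construction. It was 114 over the exon union and 157 either with Zfas1 or without Snhg3. Undivided, the median was 227 normalized counts. Gas5 stayed first and Snhg3 last under each length, while the order of the 4 hosts between them changed. The highest of these 4 was 1.17 times the lowest with the longest transcript, 1.48 times with the exon union and 2.95 times with the shortest. The median over the 9 snoRNA rows of 0 became 272 per kilobase without rows at 0, which leaves Snora16a alone, and the ratio to Snhg12, 1.85, became 0 with the median in place of the sum. With Snhg12 divided by its exon union the ratio was 2.89, by its shortest transcript 0.507, and undivided 0.165. The share of these rows detected was 11.1% at each limit, whereas that of the other mouse symbols fell from 69.7% above 0 to 64.0% at 1 and 25.8% at 10 normalized counts. Adding the 22 rows in capitals left the median at 0. Counting a snoRNA anywhere inside its host takes the same rows, since all 32 models lie in introns, and so tests nothing. The settings of the host length in the ratio were chosen after seeing the data.

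No paired analysis was possible because only means over all libraries were used. Fits between ages, other tests and normalizations, a low-value filter and fits without each library were not run either.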
